A study of Sus scrofa with 4 samples.

Results

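The genes described here are 8 germline transcription factor genes of the oocyte, chosen by symbol: FIGLA, NOBOX, SOHLH1, SOHLH2, LHX8, TAF4B, POU5F1 and OTX2. Of these, 7 had a row with values among the 16050 genes with values, and 6 were expressed highly enough to be tested. No row was matched to the symbol SOHLH2, which was not analysed here, and SOHLH1 lay under the limit for testing. The libraries were made from mature porcine oocytes at metaphase II, from ovaries of female pigs collected at a slaughterhouse, for which age and breed are not given in the sources used here. Cumulus-oocyte complexes were cultured in vitro for 44 h in maturation medium, with Cu left out (Control) or present at 25 μg/mL (Cu). The paper gives this dose and time for its experiments in general. Each library pooled 3 oocytes, and the 4 libraries analysed were Control 1, Control 2, Cu 1 and Cu 3, so n = 2 in each group. Since nothing says that the pools came from separate animals, the p-values measure only the spread between these libraries, which may be technical.

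Several of these factors act at successive steps of oocyte formation. SOHLH1 and SOHLH2 are germ cell factors with a basic helix-loop-helix (bHLH) domain that act in the first oocytes of the ovary, upstream of LHX8, a LIM homeobox factor, and of NOBOX, the homeobox factor of the newborn ovary. FIGLA, also a bHLH factor, is required for the formation of primordial follicles and for the genes of the zona pellucida, and it binds DNA together with an E protein. TAF4B is a gonadal variant of a subunit of TFIID, the general factor that recruits RNA polymerase II to promoters. POU5F1, also called OCT4, and OTX2 are homeodomain factors whose mRNA is stored in the oocyte and which are best known from early embryos and stem cells. In a mature oocyte transcription is largely silent, so the mRNA measured there is mostly mRNA stored during growth.

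The values were FPKM, fragment numbers divided by transcript length and by the fragments of the library, deposited by the authors. FPKM keeps no read numbers, so the sequencing depth behind the values is unknown and no counting interval is given. The FPKM summed to between 616082 and 672681 per library. The library Cu 1 stood apart from the rest. It had 9364 genes at 1 FPKM or more, against 7923 to 8162 in the other libraries, and 51.0% of the 8541 tested genes had their highest value in it. Pearson's r of log2(FPKM + 1) across these genes, which do not count as independent replicates, was between 0.918 and 0.923 for Cu 1 with each other library and between 0.959 and 0.976 among the others. The labelled cell type was checked with marker genes. All 10 oocyte markers were at 1 FPKM or more in every library, with a summed level of 3937 and 5057 FPKM in the Control libraries and of 7045 and 5469 FPKM in Cu 1 and Cu 3. Of 18 cumulus and granulosa cell markers 11 had values, and they summed to 9.87 and 12.2 FPKM in the Control libraries and to 15.7 and 6.73 FPKM in the Cu libraries. Most of that sum came from GATA4, also listed among the early embryo factors below, at 5.7 to 12.9 FPKM. VCAN was at 0.49 to 1.43 FPKM, TNFAIP6 reached 0.97 FPKM in Cu 1, and AMH was at 0 in every library. Whether some cumulus cell RNA was carried over was not tested. The 3 blood and immune markers with values summed to at most 0.64 FPKM.

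Within each of the 4 libraries the germline factors fell into 3 tiers, although the ranges of these tiers over the libraries overlapped. OTX2 and POU5F1 were the most abundant, LHX8 was intermediate, and NOBOX, TAF4B and FIGLA were low, while SOHLH1 was close to nothing. FPKM is per length, so these levels can be set beside each other. OTX2 ranged from 96.9 to 149 FPKM over the libraries, POU5F1 from 46.2 to 106 FPKM and LHX8 from 13.7 to 67.9 FPKM. The ranges of OTX2 and POU5F1 overlapped, and so did those of POU5F1 and LHX8, although OTX2 lay above POU5F1 and POU5F1 above LHX8 within each of the 4 libraries. The range of LHX8 did not overlap that of NOBOX, which ran from 1.98 to 10.6 FPKM. It did overlap that of FIGLA, whose 15.4 FPKM in Cu 1 exceeded the 13.7 FPKM of LHX8 in Control 1. Within each library LHX8 lay above FIGLA. NOBOX, TAF4B (2.38 to 4.55 FPKM) and FIGLA (0.96 to 15.4 FPKM) overlapped and could not be ordered, since NOBOX was above TAF4B in 1 library and TAF4B above FIGLA in 3. SOHLH1 was listed at 0 in Control 1, Control 2 and Cu 3 and at 0.03 FPKM in Cu 1.

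**Figure D1:**
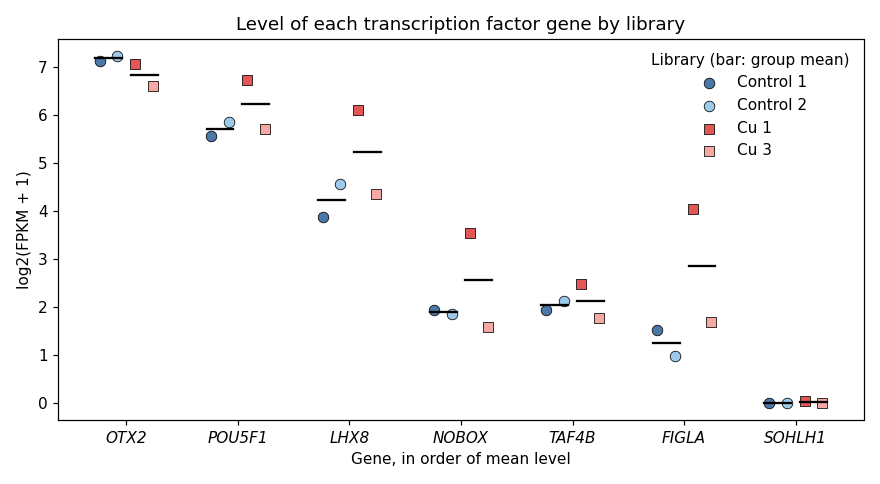
Level of 7 germline transcription factor genes, as log2(FPKM + 1), in each of the 4 libraries, with circles for Control, squares for Cu and a bar for each group mean (n = 2). OTX2 and POU5F1 lie highest and SOHLH1 at or near 0, and for POU5F1, LHX8, NOBOX, TAF4B and FIGLA the highest point is Cu 1.

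The comparison of Cu with Control asks whether the measured polyadenylated mRNA of these factors differed after exposure to Cu during maturation. The cDNA was primed with oligo dT, and the length of poly(A) tails was not measured. Of the 6 tested factors 0 passed limma's test at an adjusted p of 0.05, and 0 had an unadjusted p of 0.05 or less. Among all 8541 tested genes 0.0% passed the adjusted limit in either direction, while 599 genes, or 7.01%, had an unadjusted p of 0.05 or less. With a log2 fold change of 1.5 in addition, 1.76% of the tested genes were higher and 0.117% lower in Cu. FIGLA was the only factor whose Cu values both exceeded the Control values, an arrangement that 25.4% of tested genes had. In OTX2 alone both Cu values were under the Control values, as in 13.4% of tested genes. The fold change was positive in 5 of the 6 factors and in 64.3% of all tested genes. Its median was 0.59 over the 6 factors, which leaves out SOHLH1, and 0.16 over all tested genes. Without Cu 1 these medians were -0.14 and 0.0023, and without Cu 3 they were 1.34 and 0.31. Relative to the median of all tested genes in the 4 libraries, the fold changes were 1.45 for FIGLA, 0.84 for LHX8, 0.51 for NOBOX, 0.35 for POU5F1, -0.08 for TAF4B and -0.51 for OTX2. For a single gene in 2 libraries a group, the smallest two-sided p of an exact permutation test would be 0.333. A larger share of the mRNA and more molecules per oocyte cannot be told apart in such values, and neither can a change in every oocyte and a change in some of the 3 oocytes pooled.

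FIGLA, the regulator of the zona pellucida genes, showed the largest fold change of the 6 factors. It stood at 1.87 and 0.96 FPKM without Cu, at 15.4 FPKM in Cu 1 and at 2.21 FPKM in Cu 3. The Cu libraries were thus both higher, but Cu 3 was only just above Control 1, and Cu 1 was far above the other 3 libraries. The mean was 1.42 ± 0.64 FPKM in Control and 8.82 ± 9.34 FPKM in Cu (SD, n = 2). On the log2(FPKM + 1) scale the fold change was 1.61 (standard error 0.78, 95% interval -0.29 to 3.52, adjusted p = 0.709 in limma's test). This value exceeded those of 98.2% of all tested genes. The added 1 makes the fold changes of such weakly expressed genes smaller, and with 0.1 added it was 2.05. The gene lies at chr3:71709580-71723760 of Sscrofa11.1 (identifier 100313961), and the nearest coding gene after it, ADD2, had at most 0.02 FPKM in any library.

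NOBOX reached 2.79 and 2.59 FPKM in the controls, then 10.6 FPKM in Cu 1 and 1.98 FPKM in Cu 3. Cu 1 was the highest and Cu 3 the lowest of the 4 libraries, so the groups overlapped. The fold change was 0.67 (standard error 0.66, 95% interval -0.95 to 2.30, adjusted p = 0.828 in limma's test). NOBOX lies at chr9:113348363-113354504 (identifier 100499552). ARHGEF5, a coding gene next to it, had 0.26 to 1.33 FPKM over the libraries.

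LHX8 was at 13.7 FPKM in Control 1 and 22.8 FPKM in Control 2, against 67.9 FPKM in Cu 1 and 19.3 FPKM in Cu 3. Again Cu 1 was above all other libraries, while Cu 3 fell between the Control libraries. The fold change was 1.0 (standard error 0.63, 95% interval -0.53 to 2.54, adjusted p = 0.757 in limma's test). LHX8 lies at chr6:138074673-138102025 (identifier 100310798) and overlaps the non-coding gene LOC110261207, for which no value was analysed. Whether reads were counted by strand is not stated, so reads of the overlapping stretch cannot be assigned with certainty.

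SOHLH1 was not tested, since it did not reach 1 FPKM in 2 libraries. Its identifier is 100519291, and the RefSeq gene table gives no chromosome for it.

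TAF4B, the TFIID subunit, differed least between the groups, at 2.83 FPKM in Control 1 and 3.35 FPKM in Control 2, against 4.55 FPKM in Cu 1 and 2.38 FPKM in Cu 3. The Control libraries lay between the Cu libraries. The fold change was 0.09 (standard error 0.41, 95% interval -0.91 to 1.08, adjusted p = 0.968 in limma's test), an interval that leaves room for a change of about 1 on the log2 scale in either direction. Its sign depended on the scaling, with -0.19 after quantile normalization and -0.11 after median-of-ratios scaling. TAF4B lies at chr6:110855636-110972798 (identifier 100037274), on the same chromosome as LHX8.

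POU5F1 stood at 46.2 and 57.2 FPKM without Cu, at 106 FPKM in Cu 1 and at 51.3 FPKM in Cu 3. Cu 3 lay between the Control libraries and Cu 1 above all others. The fold change was 0.51 (standard error 0.42, 95% interval -0.51 to 1.54, adjusted p = 0.800 in limma's test). The gene lies at chr7:23564654-23570691 (identifier 100127461), next to TCF19, which had at most 1.37 FPKM in any library.

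OTX2, the most abundant of the factors, reached 140 and 149 FPKM in the controls, then 132 FPKM in Cu 1 and 96.9 FPKM in Cu 3. The Cu values were both lower than the Control values, with Cu 1 close to Control 1 and Cu 3 lowest. The mean was 145 ± 6.46 FPKM in Control and 115 ± 25.2 FPKM in Cu (SD, n = 2). The fold change was -0.35 (standard error 0.30, 95% interval -1.07 to 0.38, adjusted p = 0.805 in limma's test). The authors' mean FPKM of each group, which includes a library not analysed singly here, had the opposite order for OTX2, with 122 for Control and 128 for Cu. For the other tested factors the authors' mean was higher in Cu, with 1.96 and 7.27 for FIGLA, 2.73 and 5.63 for NOBOX, 18.3 and 44.4 for LHX8, 3.13 and 3.40 for TAF4B, and 47.3 and 76.1 for POU5F1. OTX2 lies at chr1:186028575-186039026 (identifier 100512643), and the coding genes nearest to it on either side, TMEM260 and EXOC5, had at most 2.84 FPKM.

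Of the 6 tested factors 5, all but OTX2, had their highest value in Cu 1, compared with 51.0% of all tested genes. The lowest value was that of Cu 3 in NOBOX, TAF4B and OTX2, as in 29.9% of tested genes, that of Control 1 in LHX8 and POU5F1, as in 30.2%, and that of Control 2 in FIGLA, as in 20.7%. Without Cu 1 the fold changes of NOBOX, TAF4B and POU5F1 turned to -0.31, -0.27 and -0.0028, and those of FIGLA and LHX8 dropped to 0.44 and 0.12. Of the 6 factors 0 passed the adjusted limit there, where 1.56% of tested genes passed it upward and 0.621% downward. Without Cu 3, when Cu 1 alone stood for the Cu group and was assumed to vary like the Control libraries, 4 of the 6 passed that limit upward, against 17.4% of all tested genes, and 0 downward, against 3.1%. Their fold changes were then 2.79 for FIGLA (adjusted p = 0.000216 in limma's test), 1.65 for NOBOX (0.00633), 1.88 for LHX8 (0.00152) and 1.02 for POU5F1 (0.0239). TAF4B and OTX2 did not pass it, with 0.44 and -0.12. Without Cu 1, OTX2 was at -0.57.

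**Figure D2:**
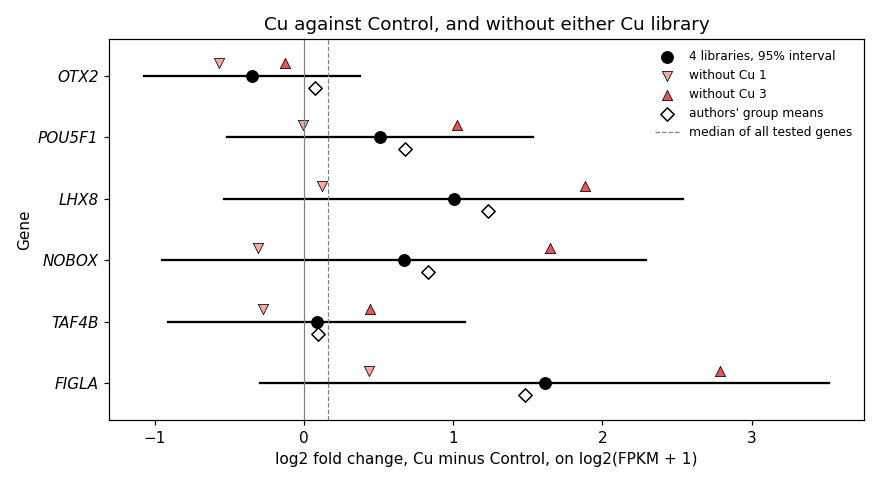
Log2 fold change of Cu minus Control for the 6 tested factors on the log2(FPKM + 1) scale, with limma's estimate and 95% interval from all 4 libraries (circle and line), the estimates without Cu 1 and without Cu 3 (triangles) and the difference of the authors' group means (diamond), and with a dashed line at the median of all tested genes, 0.16. All 6 intervals include 0, and for NOBOX, TAF4B and POU5F1 the estimate changes its sign without Cu 1.

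The difference between the Cu libraries themselves separated the factors. FIGLA was 6.98 times higher in Cu 1 than in Cu 3 by FPKM, NOBOX 5.34 times and LHX8 3.51 times. On the log2(FPKM + 1) scale these differences were 2.35, 1.96 and 1.76, and 1.79%, 3.89% and 5.32% of all tested genes had larger ones. POU5F1, TAF4B and OTX2 were nearer to the bulk of the genes, with differences of 1.03, 0.72 and 0.45, which 19.8%, 31.2% and 42.7% of tested genes exceeded. Between the Control libraries the 6 factors differed by at most 0.70 in either direction, the largest being LHX8. The low-level factors FIGLA and NOBOX and the intermediate LHX8 were thus the ones in which Cu 1 stood furthest from Cu 3. The part that the general difference of Cu 1 from the other libraries had in these values was not tested.

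**Figure D3:**
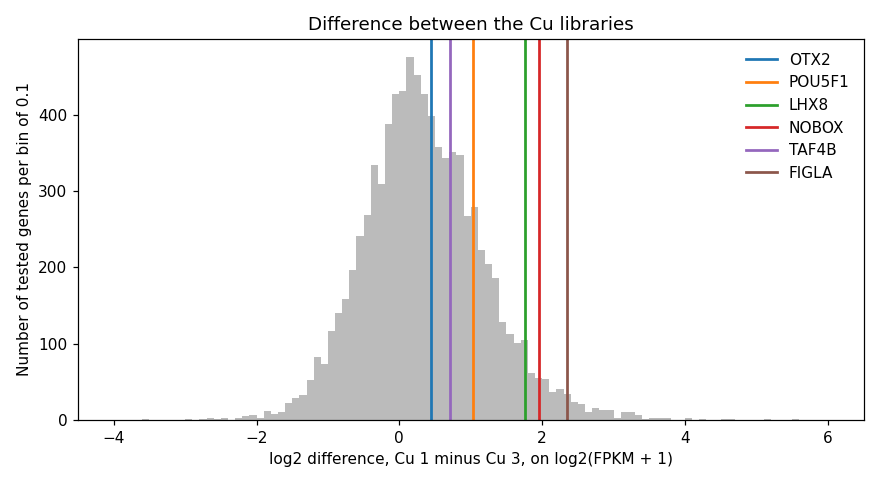
Number of the 8541 tested genes by their log2 difference between Cu 1 and Cu 3 on the log2(FPKM + 1) scale (grey, bins of 0.1), with a coloured line for each tested factor. The lines of LHX8, NOBOX and FIGLA lie in the upper tail at 1.76, 1.96 and 2.35, and that of OTX2 lies within the bulk at 0.45.

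The rank of a gene within its own library does not depend on how libraries are scaled to each other. FIGLA stood at the 57.4th and 48.8th percentile of the genes with values in Control 1 and 2, at the 78th in Cu 1 and at the 58.5th in Cu 3. NOBOX stood at the 61.9th and 60.0th percentile in the Control libraries, the 73.1st in Cu 1 and the 57.1st in Cu 3. LHX8 stood at the 80.4th, 84.8th, 92.2nd and 83.6th percentile in the same order. By rank too, then, these 3 genes were highest in Cu 1, and so was POU5F1. TAF4B, which had its highest FPKM in Cu 1, was not highest there by rank, with the 62.1st and 63.0th percentile in the Control libraries and the 61.4th and 59.4th in Cu 1 and 3. POU5F1 moved from the 91.0th and 91.9th to the 94.7th percentile in Cu 1 and the 91.5th in Cu 3. OTX2 was lower by rank in both Cu libraries, at the 95.6th and 94.8th percentile against the 96.3rd and 96.5th in the Control libraries.

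**Figure D4:**
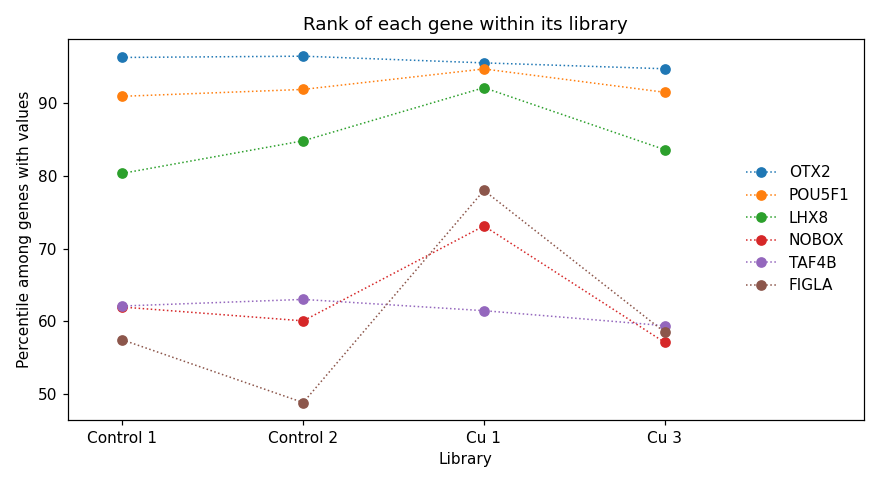
Percentile of each tested factor among the 16050 genes with values, within each library, with dotted lines that only join the points of a gene. FIGLA, NOBOX, LHX8 and POU5F1 have their highest percentile in Cu 1, and TAF4B and OTX2 in Control 2.

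Set against OTX2 within the same library, all 5 other tested factors had a larger ratio in each Cu library than in either Control library, as did 49.8% of 8502 tested genes with values above 0, while 0 had a smaller one, as 3.47% of these genes did. These ratios and the ranks above were chosen after the values had been seen. POU5F1 was at 33.0% and 38.4% of the FPKM of OTX2 in Control 1 and 2, and at 79.7% and 53.0% in Cu 1 and 3. LHX8 was at 9.76% and 15.3% in the Control libraries and at 51.3% and 20.0% in the Cu libraries. FIGLA was at 1.34% and 0.64% in the Control libraries and at 11.6% and 2.28% in the Cu libraries. For NOBOX and TAF4B the Cu 3 ratio exceeded the higher Control ratio by little, with 2.04% against 1.99% for NOBOX and 2.46% against 2.25% for TAF4B. OTX2 was itself lower in both Cu libraries, at 132 and 96.9 FPKM against 140 and 149 FPKM in the Control libraries. Dividing by these lower values raises each ratio in Cu, so the ratios are not independent of each other. They add no separate evidence of a change in the other factors. By the authors' means OTX2 was higher in Cu, with 128 against 122 FPKM.

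The nearest relatives of the factors, looked up after the values had been seen, were mostly weak. Of 7 LHX genes with values, LHX8 and LHX1 were the ones at 10 FPKM or more in all 4 libraries, and LHX1 was at 13.5 FPKM in Control 1 and 17.2 FPKM in Control 2, against 35.0 FPKM in Cu 1 and 15.7 FPKM in Cu 3. Like LHX8, LHX1 was highest in Cu 1, with Cu 3 between the Control libraries. Of 14 POU genes with values, POU5F1 alone reached 10 FPKM in all 4 libraries, and 4 reached 1 FPKM in all of them. OTX1, the paralog of OTX2, had between 0.04 and 0.35 FPKM. TAF4, the widely expressed paralog of TAF4B, stood at 1.99 and 4.07 FPKM without Cu, at 3.90 FPKM in Cu 1 and at 5.32 FPKM in Cu 3, a range that overlapped that of TAF4B.

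The genes most like each factor were found by the root mean square difference of log2(FPKM + 1) over the 4 libraries. For NOBOX they were TRPV4, a cation channel, at 0.077 and ERP29, a protein of the endoplasmic reticulum, at 0.10. For TAF4B they were ABHD13 at 0.076 and ACVR2B, an activin receptor, at 0.098. For POU5F1 they were PINX1 at 0.096 and GPX3, a secreted glutathione peroxidase, at 0.16, and for OTX2 TAZ at 0.11 and PPP2R1B, a subunit of a protein phosphatase, at 0.16. FIGLA and LHX8 had less close neighbours, LOC102160938 and the mitochondrial import gene TIMM17A at 0.20 and 0.24 for FIGLA, and NR1H2, a nuclear receptor, and ADIPOR1 at 0.18 and 0.21 for LHX8. No factor was among the 2 nearest of another. The measure includes the level itself, so factors of unlike level could not be near each other, and this says nothing on a shared pattern. Over 4 libraries such likeness is a description only.

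Among 15 partners and paralogs of the factors 14 had values and 7 were tested, with a median fold change of 0.32, beside 0.16 for all tested genes, and 0 passed the adjusted limit in either direction. That median was 0.019 without Control 1, 0.60 without Control 2 and 0.077 without Cu 1, and 0.63 with 0.1 added in place of 1, 0.16 after quantile normalization and 0.18 after median-of-ratios scaling. The E proteins, with which FIGLA and the SOHLH factors pair, differed in level. TCF12 reached 7.49 and 6.38 FPKM in the controls, then 4.76 FPKM in Cu 1 and 7.69 FPKM in Cu 3, while TCF3 and TCF4 stayed under 0.6 FPKM in every library. The lowest p of this list belonged to LDB1, TAF4 and SSBP3. LDB1, the co-factor that LIM homeobox proteins such as LHX8 bind, was at 19.3 FPKM in Control 1 and 21.2 FPKM in Control 2, against 50.5 FPKM in Cu 1 and 22.6 FPKM in Cu 3, which gave 0.71 as its log2 fold change (with a standard error of 0.45 and an adjusted p = 0.757 by limma), and 0.15 without Cu 1. SSBP3, which stabilizes LDB1, had 6.08 and 6.17 FPKM in the Control libraries and 15.6 and 5.89 FPKM in the Cu libraries. Without Cu 1 the fold change of SSBP3 was -0.05. LDB1 and SSBP3 were among 3 of the 7 tested genes of this list with the highest value in Cu 1, beside 51.0% of all tested genes. SSBP2, of the same family as SSBP3 and named after its values were seen, was lowest in Cu 1, at 5.68 FPKM against 5.95 to 6.42 FPKM in the other libraries.

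All 19 genes of the list of TFIID and TBP-related factors, which also holds the TFIIA genes GTF2A1, GTF2A1L and GTF2A2, were tested. Their median fold change was -0.15, with 8 higher and 11 lower in Cu, and 0 passed the adjusted limit in either direction. That median was 0.00072 without Cu 1, -0.23 without Control 2 or without Cu 3, -0.09 without Control 1, -0.31 after quantile normalization and -0.39 after median-of-ratios scaling. The lowest p of the list were those of GTF2A1, TAF13 and TAF10, and GTF2A1 was the only one with an unadjusted p under 0.05. GTF2A1, a subunit of TFIIA, stood at 24.3 and 25.1 FPKM without Cu, at 13.4 FPKM in Cu 1 and at 10.2 FPKM in Cu 3, which gave -1.02 as its log2 fold change (with a standard error of 0.34 and an adjusted p = 0.656 by limma), and -1.20 without Cu 1. In TAF13 the Cu libraries were also both lower, at 130 and 97.2 FPKM without Cu and at 46.7 FPKM in Cu 1 and 86.5 FPKM in Cu 3, with a fold change of -0.81 that was -0.38 without Cu 1. In TAF10 the groups overlapped, at 15.7 and 7.16 FPKM without Cu and at 31.99 FPKM in Cu 1 and 14.9 FPKM in Cu 3, with a fold change of 0.97 (standard error 0.54) that was 0.45 without Cu 1. The Cu values were both under the Control values in 6 of the 19 genes and both over them in 1, beside 13.4% and 25.4% of all tested genes. TBPL2, the oocyte relative of TBP, was one of the 6, at 14.1 and 12.1 FPKM without Cu and at 11.0 FPKM in Cu 1 and 10.5 FPKM in Cu 3. TAF12, whose protein pairs with TAF4B, was far more abundant than TAF4B, at 114 to 165 FPKM.

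The oocyte genes known from mouse ovaries to depend on these factors were mostly abundant. Of 20 such genes 16 had values and 15 were tested, with a median fold change of 0.49, and 0 passed the adjusted limit in either direction. That median was 0.087 without Cu 1, 1.10 without Cu 3 and 0.27 without Control 1, and 0.28 after median-of-ratios scaling. Of the 15, 10 had their highest value in Cu 1, 4 had Cu values that were both above the Control values and 0 had Cu values both below, beside 51.0%, 25.4% and 13.4% of all tested genes. The zona pellucida gene ZP3, a target of FIGLA, reached 88.2 and 122 FPKM in the controls, then 483 FPKM in Cu 1 and 96.4 FPKM in Cu 3, so that like FIGLA it was highest in Cu 1, but in Cu 3 it lay between the controls. ZP2, the other measured zona gene of this list, was at 495 FPKM in Control 1 and 991 FPKM in Control 2, against 928 FPKM in Cu 1 and 1198 FPKM in Cu 3. Within ZP2 it was Cu 3, and not Cu 1, that had the highest value. ZP4, a zona gene outside this list, was lowest in Cu 1. It had 755 and 1407 FPKM in the Control libraries and 734 and 954 FPKM in Cu 1 and Cu 3. ZP1 was not analysed here.

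The growth factor gene GDF9, a target of NOBOX, stood at 119 and 218 FPKM without Cu, at 624 FPKM in Cu 1 and at 242 FPKM in Cu 3, which gave 1.26 as its log2 fold change (with a standard error of 0.53 and an adjusted p = 0.708 by limma). Its partner BMP15 reached 396 and 1287 FPKM in the controls, then 1158 FPKM in Cu 1 and 870 FPKM in Cu 3, with both Cu libraries inside the Control range. KIT, the receptor through which granulosa cells support the oocyte, had 3.14 and 6.94 FPKM in the Control libraries and 7.90 and 6.25 FPKM in the Cu libraries. The lowest p of this list belonged to ZAR1, GDF9 and OOEP. ZAR1, an RNA-binding protein of the oocyte, was at 6 FPKM in Control 1 and 4.56 FPKM in Control 2, against 24.9 FPKM in Cu 1 and 8.84 FPKM in Cu 3, which gave 1.36 as its log2 fold change (with a standard error of 0.54 and an adjusted p = 0.685 by limma). OOEP, of the subcortical maternal complex, had a log2 fold change of 0.81. Without Cu 1 the fold changes of ZAR1, GDF9 and OOEP were 0.66, 0.58 and 0.53, and that of ZP3 was -0.11.

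The pluripotency and early embryo factors that act beside POU5F1 were mostly low. Of 23 genes 18 had values and 9 were tested, with a median fold change of 0.33, and 0 passed the adjusted limit in either direction. That median was 0.18 without Control 2, 0.087 after quantile normalization and 0.16 after median-of-ratios scaling. SOX2, the DNA-binding partner of POU5F1 in stem cells, stood at 0.06 and 0.25 FPKM without Cu, at 2.2 FPKM in Cu 1 and at 0.16 FPKM in Cu 3, too low to be tested, and NANOG was not analysed here. In every library POU5F1 mRNA was thus at 46.2 FPKM or more and SOX2 mRNA at 2.2 FPKM or less. The lowest p of the list belonged to KLF4, SALL4 and TFAP2C, and in each of them Cu 3 was the highest library. KLF4, a zinc finger factor used in reprogramming, reached 6.80 and 5.03 FPKM in the controls, then 10.6 FPKM in Cu 1 and 18.0 FPKM in Cu 3, which gave 1.11 as its log2 fold change (with a standard error of 0.41 and an adjusted p = 0.656 by limma), and 1.47 without Cu 1. SALL4, a zinc finger factor that works with POU5F1, was at 77.4 FPKM in Control 1 and 64.6 FPKM in Control 2, against 105 FPKM in Cu 1 and 106 FPKM in Cu 3, which gave 0.58 as its log2 fold change (with a standard error of 0.28 and an adjusted p = 0.711 by limma) and also 0.58 without Cu 1. TFAP2C, a factor of early germ cells and of the trophoblast, had 46.5 and 79.8 FPKM in the Control libraries and 68.0 and 206 FPKM in the Cu libraries, which overlapped.

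Of 12 homeobox genes related to OTX2 that are active in early embryos of several mammals, 5 had values and 2 were tested, and 0 passed the adjusted limit in either direction. DUXA stood at 82.6 and 64.8 FPKM without Cu, at 45 FPKM in Cu 1 and at 69.3 FPKM in Cu 3, and LEUTX had 8.81 and 6.98 FPKM in the Control libraries and 8.21 and 4.68 FPKM in the Cu libraries. Their fold changes were -0.38 and -0.29, with overlapping groups in both genes. Without Cu 1 they were -0.08 and -0.64, and the authors' means for DUXA had the opposite order, with 58.9 for Control and 67.5 for Cu.

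**Figure D5:**
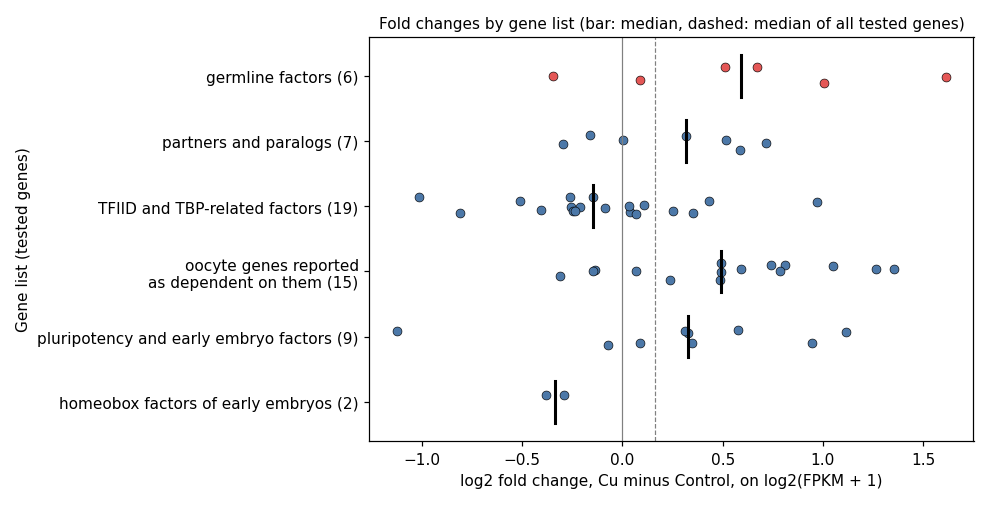
Log2 fold change of Cu minus Control on the log2(FPKM + 1) scale for each tested gene (points, number in brackets) of the germline factors and of the lists of partners, TFIID, dependent oocyte genes, pluripotency factors and homeobox factors, with a bar at each list's median and a dashed line at the median of all tested genes, 0.16. The median of the TFIID list, which includes TFIIA genes, lies below 0 at -0.15 and that of the dependent oocyte genes at 0.49. In each list genes lie on both sides of the dashed line except for the homeobox factors.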

How the data were processed

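The authors' deposited values were FPKM with 2 decimals, for 4 libraries (2 Control, 2 Cu) of 3 oocytes each, amplified from polyadenylated RNA by Smart-seq2. The table of 30684 rows held values in 16050. Per the paper's methods, reads were filtered with SOAPnuke, mapped with HISAT2 and Bowtie2, and quantified with RSEM. The submitters' processing notes instead name TopHat2 2.0.13, Cufflinks 2.2.1, Cuffnorm and Cuffdiff with build Sscrofa11.1, and which of these made the table is not stated. A pair of further columns hold the authors' group means, used without SD or n.

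The 8541 genes with at least 1 FPKM in 2 or more libraries were compared on log2(FPKM + 1) with limma 3.58.1 in R 4.3.3 (variance trend, Benjamini-Hochberg adjustment over the tested genes). The fit was tested on simulated data. FPKM are not counts, so the count test of the study was not run. Positions and identifiers were looked up in RefSeq's Sscrofa11.1 gene table, where all 16050 identifiers were found. Named genes were the factors, the 3 list genes with the lowest p, a few partners and targets, and the 2 genes nearest to each factor. Factors and lists were chosen with earlier results of these data known. Alternatives covered pseudocount, filter, scaling, variance trend, each library and the authors' means.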

Additional observations from a re-analysis of the deposited data

How the results depend on the processing

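The fold changes of FIGLA and LHX8 kept their sign under all alternatives that gave a value, and FIGLA was not tested under a filter of 1 FPKM in all 4 libraries. Over the fits that leave out 1 library, the fold change ranged from 0.44 to 2.79 for FIGLA, -0.31 to 1.65 for NOBOX, 0.12 to 1.88 for LHX8, -0.27 to 0.44 for TAF4B, -0.0028 to 1.02 for POU5F1 and -0.57 to -0.12 for OTX2. The upper ends came without Cu 3, and the lower ends without Cu 1. The single alternative outside these fits that reversed NOBOX, POU5F1 or OTX2 was the authors' means for OTX2, with 0.075 on the log2 scale. TAF4B also turned to -0.19 after quantile normalization and -0.11 after median-of-ratios scaling, and to -0.0063 without Control 1, and the cause of these reversals was not tested. These scalings moved the median of all tested genes from 0.16 to -0.05 and -0.04. The median of the 6 tested factors, 0.59, ranged from -0.14 to 1.34 with 1 library left out and was 0.36 after median-of-ratios scaling. Of the values of the 5 list medians under the alternatives, 43 moved by less than the spread between libraries and 12 by more. Of the 12, 7 were for the partners and paralogs. The 43 include large moves. The median of the dependent oocyte genes, 0.49, was 0.087 without Cu 1 and 1.10 without Cu 3. The tally thus does not show that the medians are stable.

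Over all tested genes, the number at an adjusted p of 0.05 was 0 in all fits of 4 libraries, and 0 to 1755 with 1 library left out, with 186 without Cu 1. With both an unadjusted p under 0.05 and a fold change past 1.5 on the log2 scale, 150 genes were higher and 10 lower. A pseudocount of 0.1 gave 246 and 24, quantile normalization and median-of-ratios scaling gave 20 and 24 lower genes, and leaving out 1 library gave 77 to 741 higher and 11 to 41 lower. No paired analysis was run, since the labels do not say that any libraries were paired, and the groups share only replicate number 1. The depth of the libraries is unknown, so how precisely FIGLA, NOBOX, TAF4B and SOHLH1 were measured is not known.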
